A study of Mus musculus with 4 samples.

Results

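The genes described here are the mouse MHC class II genes and their transcriptional activator, 10 in all of the 55471 genes counted: H2-Aa, H2-Ab1, H2-Eb1, Cd74, H2-DMa, H2-DMb1, H2-DMb2, H2-Oa, H2-Ob and Ciita. They were chosen by name, as the rows whose Ensembl identifiers carry these symbols in the GENCODE M21 annotation of GRCm38, and all 10 were found. The libraries are poly(A) RNA-seq of CD11b-positive cells that were isolated from brains of mice aged 10 to 13 weeks with magnetic beads. All 4 libraries belong to the single group PLX5622: the mice received this inhibitor of the receptor kinase CSF1R for 7 days and were then kept for 10 days without it, 17 days in all. The labels name no strain, sex or genotype. They number the libraries 1 to 4 without saying whether different animals gave them, and p-values here therefore speak only of the spread among these 4 samples, part of which may be technical. Since no untreated group was analysed here, nothing below estimates what the drug did.

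MHC class II molecules present peptides from endocytosed proteins to CD4 T cells. An alpha and a beta chain assemble in the endoplasmic reticulum with the invariant chain (Cd74), which fills the groove until it is digested in endosomes; the DM heterodimer then exchanges the remaining fragment for peptide, and the DO heterodimer restrains DM. Ciita, induced by interferon-gamma in macrophages and microglia, switches these genes on without binding DNA itself: it docks on RFX, CREB and NF-Y proteins held at the X and Y boxes of class II promoters. Resting microglia are known for low class II expression, and border-associated macrophages, dendritic cells and B cells for higher levels.

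The promoter sequences are shown because this shared X and Y box layout is what groups most of these genes under Ciita. In the RefSeq promoter table (GRCm38.p6, 250 bases before to 50 after a start site) 8 promoters were found for 7 chromosome 17 members, with H2-DMa having 2. The letters searched were GNAAC, the core of the X box, followed by ATTGG, the Y box read as reverse CCAAT, with 30 to 33 bases from the start of one to the start of the other, a range set on these members. The 5 promoters of H2-Aa, H2-Eb1, H2-Oa, H2-Ob and H2-DMb1 held the pair on the strand of the gene. Among all 32851 promoters of the table, 0.353% held it on that strand and 0.712% on either strand, whereas ATTGG alone was in 37.4% and GNAAC alone in 84.8% on either strand. Capitals mark both motifs in the windows, which are written 5′ to 3′ on the strand of each gene:
H2-Aa, minus strand, chr17:34287857-34287922: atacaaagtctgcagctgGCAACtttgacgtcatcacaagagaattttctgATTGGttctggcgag
H2-Eb1, plus strand, chr17:34305758-34305822: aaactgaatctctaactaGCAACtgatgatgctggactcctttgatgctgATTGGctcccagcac
H2-Oa, plus strand, chr17:34092285-34092350: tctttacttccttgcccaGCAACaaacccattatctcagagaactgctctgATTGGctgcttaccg
H2-Ob, plus strand, chr17:34238800-34238862: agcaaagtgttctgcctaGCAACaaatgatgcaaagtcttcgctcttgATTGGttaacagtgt

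The first motif lay 81, 91, 76 and 87 bases before the start site in H2-Aa, H2-Eb1, H2-Oa and H2-Ob. The paralogous beta chain genes of DM differ at this place. Over 66 aligned bases they shared 57 (86.4%), and the short stretch around the first motif is shown because the motif is present in H2-DMb1 and interrupted in H2-DMb2:
H2-DMb1, plus strand, chr17:34153087-34153116: ggtttacctaGTAACtgatgatgctaggct
H2-DMb2, plus strand, chr17:34145116-34145145: ggtttacctattaaccgatgatgctaggct
Counted from 1 at the 5′ end of these 30 bases, the differences from H2-DMb1 to H2-DMb2 were G11T and T16C, and the first falls in the motif. Both promoters held ATTGG farther on, 61 and 90 bases before the start. All distances here are to the RefSeq start. In GENCODE M21 an annotated exon of the same gene overlaps the windows of H2-DMb1 and H2-Oa. Neither H2-DMa promoter of the table held the pair. A match describes letters only, and no match says nothing about the binding of a factor.

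Libraries 1 to 4 held 24412573, 23036202, 23585261 and 24487418 counts. Levels are given as CPM (counts per 1000000), with library sizes adjusted by TMM, the trimmed mean of M values. P2ry12, Tmem119, Cx3cr1, Sall1 and Siglech, which define microglia, were present in every library, with 817 ± 132 CPM (SD, n = 4) for Sall1. Choroid plexus and vascular genes were lowest in library 3, where 29.2% of all genes tested had their minimum. This held for 8 of 8 choroid plexus, 9 of 9 pericyte and 9 of 10 endothelial genes. Of the 10 class II genes 0 had their minimum there, or 4 (H2-Aa, H2-Ab1, H2-Eb1 and Cd74) if scaled to the homeostatic microglial genes. The part of choroid plexus and vascular cells in the class II levels was not tested.

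The classical chains carry the peptide. H2-Aa (ENSMUSG00000036594, chromosome 17, 34282744 to 34287823), the alpha chain of I-A, had 254, 139, 131 and 118 CPM in libraries 1 to 4. Library 1 stood well above the other 3, which lay close together. The mean was 161 ± 62.8 CPM (SD, n = 4), or 129.6 ± 10.6 CPM without library 1 (n = 3). H2-Ab1 (ENSMUSG00000073421, chromosome 17, 34257689 to 34269419), its beta chain partner, had 169, 125, 124 and 102 CPM, again with library 1 highest and library 4 lowest. H2-Eb1 (ENSMUSG00000060586, chromosome 17, 34305867 to 34316674), the beta chain of I-E, had 188, 114, 113 and 98.9 CPM, with the libraries in an identical order. Library 1 exceeded the mean of the other libraries 1.96-fold for H2-Aa, 1.73-fold for H2-Eb1 and 1.44-fold for H2-Ab1. In bulk RNA, fewer cells of a type and less RNA per cell cannot be told apart.

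The alpha chain of I-E was not seen. H2-Ea-ps (ENSMUSG00000036322), annotated as a polymorphic pseudogene because some mouse haplotypes do not express it, had 0 counts in each library. A floor of 3 counts allows up to 0.122, 0.130, 0.132 and 0.119 CPM in libraries 1 to 4, counting error only. H2-Eb2, a further beta chain gene beside H2-Eb1, had 2, 2, 2 and 6 counts, at or near that floor.

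Cd74 (ENSMUSG00000024610, chromosome 18, 60803848 to 60812652), the invariant chain, had 425, 345.5, 312 and 289 CPM in libraries 1 to 4. It shared the order of the classical chains, with a smaller gap: library 1 was 1.35-fold above the mean of the others. Its mean was 343 ± 59.3 CPM (SD, n = 4).

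The peptide exchange factor DM was present in every library. H2-DMa (ENSMUSG00000037649, chromosome 17, 34119541 to 34139101) had 159, 161, 197 and 159.6 CPM. Here library 3 stood apart and the other 3 were nearly equal, but scaled to the homeostatic genes the values were 137, 174, 185 and 183, with library 1 apart on the low side. H2-DMb1 (ENSMUSG00000079547, chromosome 17, 34153072 to 34160230) had 65.6, 62.3, 62.5 and 55.6 CPM, a range of 1.18-fold. H2-DMb2 (ENSMUSG00000037548, chromosome 17, 34143307 to 34151555) had 10.9, 11.6, 12.7 and 10.7 CPM. Its coefficient of variation of 7.95% was little above the 6.05% that counting alone gives at its depth of 268 to 289 counts. The levels of the 2 beta chain genes are uncertain relative to each other, since they share sequence: 77.3% of the 50-base windows of the H2-DMb1 transcripts and 74.1% of those of H2-DMb2 occur in no other gene.

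DO, the partner that restrains DM, was also expressed. H2-Oa (ENSMUSG00000024334, chromosome 17, 34092340 to 34095234) had 53.0, 49.3, 58.6 and 50.9 CPM, and H2-Ob (ENSMUSG00000041538, chromosome 17, 34238903 to 34254414) had 53.5, 56.1, 69.5 and 50.5 CPM. Library 3 was highest for both, and the libraries differed by at most 1.19-fold for H2-Oa and 1.38-fold for H2-Ob. DO is known above all from B cells, and the defining B cell genes were near the floor: Ms4a1 had 0.417 ± 0.130, Cd79a 0.304 ± 0.0426 and Pax5 0.239 ± 0.107 CPM (SD, n = 4). Of the same list, Ighm at 281 ± 36.8, Cd22 at 16.7 ± 5.26, Cd79b at 12.6 ± 4.85 and Ebf1 at 12.6 ± 6.66 CPM lay farther above the floor, and Ebf1 was called in edgeR (adjusted p = 0.0356; 0 of the list without library 1), with its lowest level in library 3. The summed CPM of the 11 genes was 296 to 369, most of it Ighm.

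Ciita (ENSMUSG00000022504, chromosome 16, 10480059 to 10528418) had 118, 158, 166 and 161 counts or 4.81, 6.83, 7.31 and 6.39 CPM. Library 1, where the 3 classical chains were highest, had the lowest Ciita. The mean was 6.33 ± 1.08 CPM (SD, n = 4), with a coefficient of variation of 17.1% against 8.14% from counting alone.

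**Figure D1:**
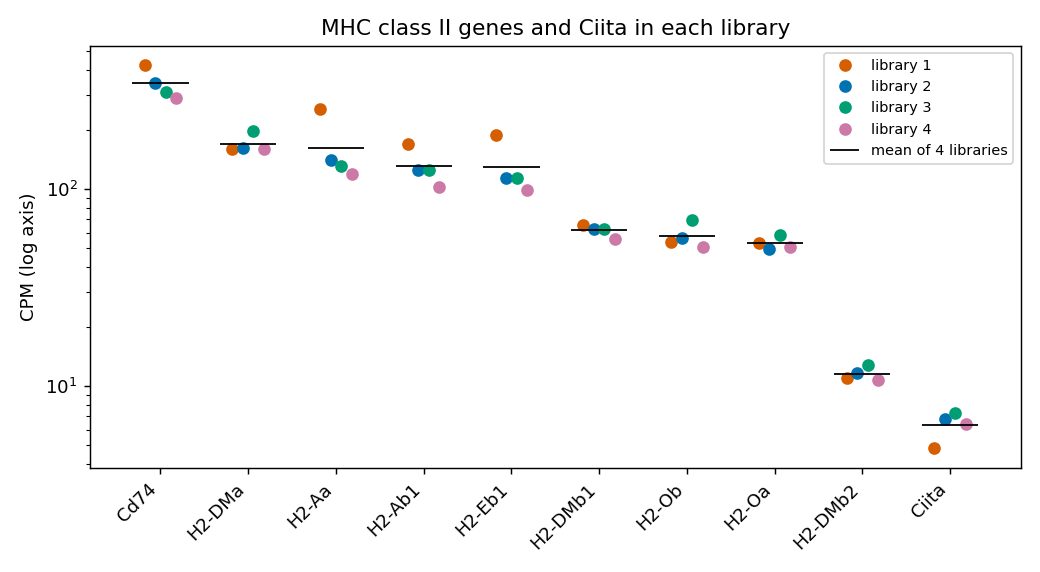
CPM of each gene (log axis) in libraries 1 to 4 (coloured points), with the mean of the 4 libraries as a black line, genes ordered by mean. Library 1 lies above the other libraries for Cd74, H2-Aa, H2-Ab1 and H2-Eb1 and below them for Ciita. Within each DM and DO gene the libraries differ by at most 1.38-fold (H2-Ob).

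Annotated overlaps limit some of these levels, since no source used here gives the strand setting of the counting. Of the exonic bases of H2-DMa, 360 (10.4%) overlap Brd2 on the opposite strand, which had 6237 to 7678 counts. H2-Oa shares 22.8% of its exonic bases with the antisense gene BC051537, which had only 16 to 31 counts. Ciita shares 3.45% with Dexi on the opposite strand, which had 340 to 425 counts. No exonic base of H2-Aa, H2-Ab1, H2-Eb1, H2-DMb1, H2-DMb2 or H2-Ob was shared with another annotated gene, and Cd74 shared 12 bases with the microRNA gene Mir5107.

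Levels of different members were compared per length, as CPM per kilobase of all annotated exons. Cd74 came first with 204 ± 35.4 CPM per kilobase (SD, n = 4), 3.15-fold above H2-Eb1, and the libraries of the pair did not overlap. A middle group followed within a narrow range: H2-Eb1 at 66.2 ± 20.8, H2-Ab1 at 50.7 ± 10.9, H2-DMa at 49.1 ± 5.46, H2-Aa at 42.3 ± 16.5, H2-Oa at 37.7 ± 2.89 and H2-DMb1 at 36.6 ± 2.5 CPM per kilobase. Within that group every pair of neighbours overlapped between libraries, although H2-Eb1 exceeded H2-Ab1 in 4 of 4 libraries, by 1.29-fold. H2-Ob at 10.7 ± 1.56 lay 3.45-fold below H2-DMb1, H2-DMb2 at 6.57 ± 0.523 lay 1.62-fold below H2-Ob, and Ciita at 0.664 ± 0.113 CPM per kilobase lay 9.99-fold below H2-DMb2, each in 4 of 4 libraries and without overlap. With the longest transcript as length these genes kept their places, but the log2 gap of H2-DMb1 to H2-Ob fell to 1.03 from 1.79 and that of H2-Ob to H2-DMb2 grew to 1.47 from 0.69.

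Each of the 9 neighbouring pairs was compared by flipping the signs of its 4 log2 differences in all 16 ways, an exact two-sided permutation test that cannot give a p below 0.12 (2 of 16), so that no pair could pass 0.05. The smallest p was reached by 5 of the 9 pairs, those just given as higher in 4 of 4 libraries, with a Benjamini-Hochberg adjusted value of 0.225. The remaining 4 pairs had exact permutation p of 0.375 to 0.875, and an order within them was not detectable. Length itself moved part of the order. Per kilobase of the longest transcript, H2-Ab1 took rank 2 and H2-Eb1 rank 4, with a log2 difference of H2-Eb1 to H2-Ab1 of -0.50 in place of 0.36.

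**Figure D2:**
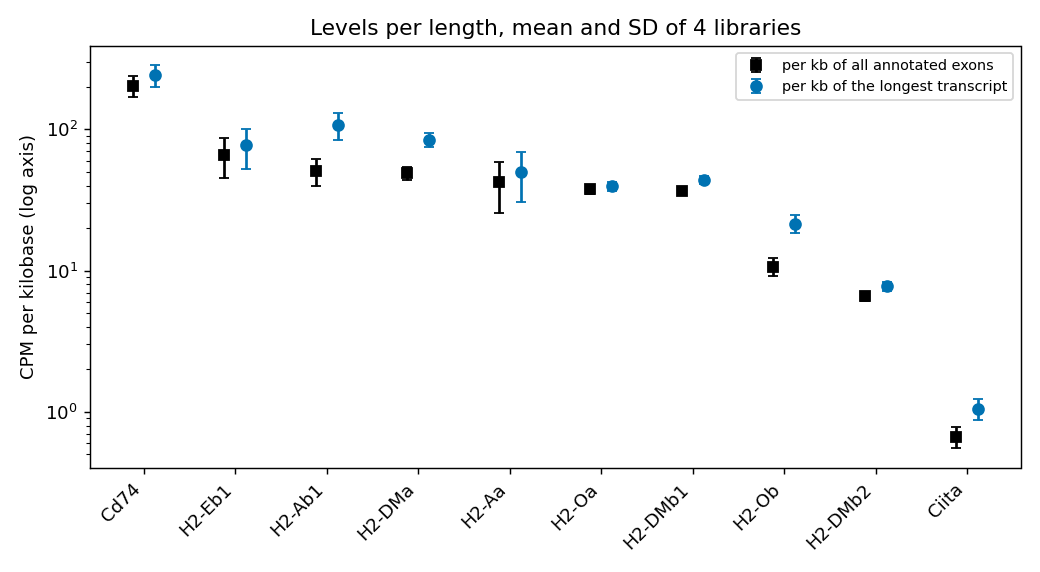
Mean CPM per kilobase (log axis) of each gene with its SD over 4 libraries, per kilobase of all annotated exons (squares) and of the longest transcript (circles). Cd74 is highest and H2-Ob, H2-DMb2 and Ciita are lowest with both lengths, and the order of the 6 genes between them depends on the length used.

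Ratios between members differed in how constant they were, and the ratios shown were chosen after seeing the values. Per kilobase of exons, H2-Oa and H2-Ob together stood at 0.522, 0.503, 0.537 and 0.533 of the 3 DM genes in libraries 1 to 4, a mean ratio of 0.524 ± 0.0150 (SD, n = 4). This ratio of summed DO to summed DM was nearly the same in every library, but it is not a ratio of partner chains. The DO partners H2-Oa to H2-Ob stood at 3.79, 3.36, 3.23 and 3.85, with a SD of 0.311. H2-DMa to the sum of H2-DMb1 and H2-DMb2 was 1.02, 1.07, 1.29 and 1.18, and H2-Aa to H2-Ab1 was 1.02, 0.753, 0.714 and 0.785, with library 1 highest. Per kilobase of the longest transcript the latter ratio was 0.565, 0.419, 0.397 and 0.436, so its size depends on the length used and the high value in library 1 does not. The DM genes together stood at 0.398, 0.627, 0.721 and 0.702 of the summed H2-Aa, H2-Ab1 and H2-Eb1. The chains were highest in library 1, and the summed DM genes were highest in library 3. Cd74 to the same 3 chains was 1.10, 1.43, 1.32 and 1.42 (0.909, 1.14, 1.05 and 1.14 with the longest transcript), and H2-DMb1 to H2-DMb2 was 6.23, 5.59, 5.11 and 5.41.

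To test spread, the deviance of each gene in edgeR was set against the negative binomial expectation, a goodness of fit which asks whether a gene varied more than genes of its level. None of the 10 genes passed at an adjusted p under 0.05, against 3.28% of the 14112 genes tested. At an unadjusted p under 0.05 there was 1 member, H2-Aa (adjusted p = 0.158 in edgeR), against 9.57% of all genes. H2-Eb1 followed with an adjusted p of 0.540 in edgeR, and the other 8 had an adjusted p of 1. The quasi-likelihood test also called 0 of the 10, and 0% of all genes, with 1 member at an unadjusted p under 0.05 against 4.66% of all genes. DESeq2 marked 0 of the 10 as dispersion outliers, against 0.0354% of all genes. The median ratio of the highest to the lowest library was 1.42 over the 10 genes and 1.43 over all genes tested. Over the 10 it was 1.19 without library 1, and 1.42, 1.30 and 1.33 without libraries 2, 3 and 4. At a fixed scaling such a ratio cannot rise when a library is left out. The value over all genes without library 1 was not computed, so 1.19 has no reference here.

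By library, the 10 genes fell into 2 sets of 5. H2-Aa, H2-Ab1, H2-Eb1, Cd74 and H2-DMb1 were highest in library 1, where 34.2% of all genes tested had their maximum, and H2-DMa, H2-DMb2, H2-Oa, H2-Ob and Ciita were highest in library 3, where 28.3% had it. None was highest in library 2 or 4, where 16.5% and 20.9% of all genes were. Library 4 was the lowest for 7 of the 10, against 20.3% of all genes, library 1 for 2 (31% of all genes), library 2 for 1 (19.5%) and library 3 for 0 (29.2%). Relative to the summed homeostatic microglial genes, a scaling that lowers the median of all genes in library 1 by 0.27 on the log2 scale, library 1 was still 1.6-fold above the mean of the others for H2-Aa, 1.42-fold for H2-Eb1, 1.19-fold for H2-Ab1 and 1.10-fold for Cd74, against 0.819-fold for the median gene. The order of libraries changed with that choice for each of the 10. With that scaling H2-Aa, H2-Ab1 and H2-Eb1 kept their maximum in library 1, H2-DMa and H2-Ob kept theirs in library 3, and Cd74, H2-DMb1, H2-DMb2 and Ciita had theirs in library 2 and H2-Oa in library 4. For H2-DMa libraries 3 and 4 were then nearly level. None of the 10 was lowest in library 4 with this scaling, 6, Ciita among them, were lowest in library 1, and H2-Aa, H2-Ab1, H2-Eb1 and Cd74 were lowest in library 3. H2-DMb1 in library 1 was 0.893-fold the mean of the others instead of 1.09-fold.

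**Figure D3:**
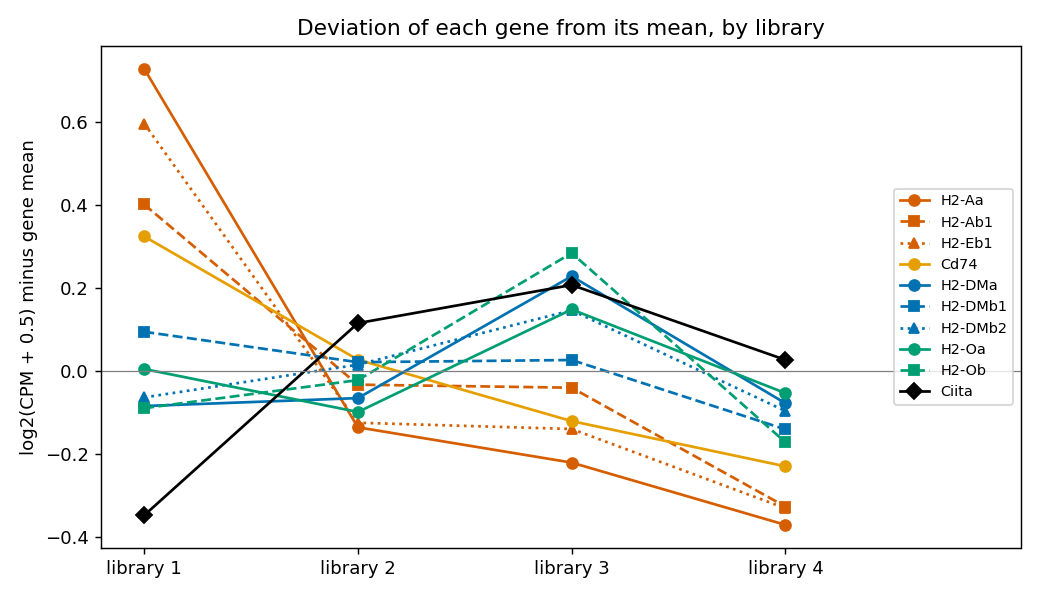
Deviation of log2(CPM + 0.5) of each gene from its own mean over the 4 libraries; lines join the points of one gene and imply no order of libraries. In library 1 H2-Aa lies 0.73 above its mean and Ciita 0.35 below, and among the DM and DO genes the farthest point is H2-Ob in library 3, 0.28 above its mean.

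Markers of border-associated macrophages were also highest in library 1. Of the 12 border-associated macrophage genes listed, 11 were highest in library 1 (10 of 12 with homeostatic scaling), against 34.2% of all genes. The list had a summed level of 1679, 1209, 1244 and 1044 CPM in libraries 1 to 4. Most of that sum was Stab1, a scavenger receptor, with 947.5, 834, 865 and 723 CPM, for which library 1 was 1.17-fold above the others. Siglec1, a sialic acid receptor, was the exception, lowest in library 1 with 17.0, 32.2, 51.4 and 34.7 CPM. By the goodness of fit in edgeR 6 of 12 were called, against 3.28% of all genes tested: Mrc1, Cd163, Cbr2, Pf4, Ms4a7 and Cd209f. Without library 1 the count was 0 of the 12, and 425 over all genes. The quasi-likelihood test called 0 of the 12 and 0% of all genes. Mrc1, the mannose receptor, had 291, 148, 141 and 121 CPM, F13a1, a coagulation factor subunit, had 122, 66.7, 72.1 and 60.5 CPM, and Pf4, a chemokine of these macrophages, had 40.0, 10.5, 9.55 and 8.30 CPM. Over the list, library 1 stood 2.18-fold above the mean of the others for the median gene, against 1.05-fold for the 10 class II genes and 1.01-fold for all genes tested. No marker of the list was at 0 in any library, and its part in the class II levels was not tested.

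Dendritic cell genes gave no such common order. Their summed level was 472, 453, 490 and 420 CPM, of which Fscn1 gave 278 to 340 CPM. Of the genes that define these cells, Xcr1 had 3, 3, 0 and 9 counts, Clec9a had 0.395 ± 0.121, Ccr7 1.67 ± 0.369 and Flt3 2.54 ± 0.509 CPM (SD, n = 4). Others were well above the floor: the transcription factor Zbtb46 had 12.6, 13.8, 5.63 and 10.2 CPM, and Batf3 had 33.7, 20.9, 26.0 and 19.5 CPM, highest in library 1. Cd209a and Clec10a were also highest there, with 23.3 and 21.5 CPM against at most 16.9 and 9.07 CPM in the others. Itgax, the integrin chain CD11c, was the 1 called gene of the 10 tested (adjusted p = 0.00105 in edgeR), against 3.28% of all genes. Without library 1 there were 0. Itgax was lowest in library 1, with 29.1, 59.3, 117 and 80.6 CPM. Of the monocyte list, Ccr2 had 26.9, 22.4, 22.2 and 22.5 CPM and Ly6c2 1.14 ± 0.353 CPM. Of its 10 tested genes 2 were called, Ace and Fn1, against 3.28% of all genes, and these were lowest in library 3. Of the 7 T and NK cell genes tested 0 were called, against 3.28% of all genes tested. At an unadjusted p under 0.05 there was 1 in edgeR (9.57% of all genes) and 0 in the quasi-likelihood test (4.66%).

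The T and NK cell list was low, but its sum had the order of the classical chains. Its summed level was 29.1, 20.6, 13.4 and 12.7 CPM in libraries 1 to 4, and 6 of the 7 tested genes were highest in library 1 (3 of 7 with homeostatic scaling), against 34.2% of all genes. Gzma, a granzyme of cytotoxic cells, had that order, with 11.8, 5.70, 3.35 and 2.66 CPM. Not every gene of the list did. Il2rb, an interleukin receptor chain, had 3.79, 4.23, 2.245 and 2.10 CPM (3.09 ± 1.08, SD, n = 4). Cd4 had 2.86, 2.07, 1.94 and 2.22 CPM (2.27 ± 0.406). The T cell receptor component Cd3e had at most 0.397 CPM and Cd8a was at 0 counts in library 1. Ifng, which encodes the inducer of Ciita, had 10, 4, 4 and 3 counts. The part of these cells in the class II levels was not tested.

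Genes of the class I pathway, which presents cytosolic peptides, took the other order. All 9 MHC class I genes were highest in library 3 (7 if scaled to the homeostatic genes), against 28.3% of all genes. In library 1 the level was lowest for 6 of the 9, against 31% of all genes. In edgeR 3 of 9 were called, H2-D1, H2-Q6 and H2-Q7 (0 without library 1), against 3.28% of all genes. The quasi-likelihood test called 0 of the 9 and 0% of all genes. H2-D1, a classical class I heavy chain, had 490.2, 1135, 1895 and 1287 CPM. The class I light chain B2m had 2766, 2667, 4393 and 3188 CPM, and the heavy chain H2-K1 494, 855, 1272 and 908 CPM. Nlrc5, the class I counterpart of Ciita, had 15.7, 42.0, 76.7 and 52.4 CPM, a 4.90-fold range (adjusted p = 0.000458 in edgeR), whereas Ciita covered 1.52-fold, with libraries 1 and 3 again at the ends. The difference between the class I and class II genes was not tested.

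Of the interferon-gamma response genes, 2 of 18 were called in edgeR, Nlrc5 and Cxcl10 (0 without library 1), against 3.28% of all genes. In library 1 the level was lowest for 14 of 18, against 31% of all genes. Psmb8, an immunoproteasome subunit, had 128 ± 23.3, the peptide transporter subunit Tap1 105 ± 31.6 and the GTPase Irgm1 88.9 ± 30.9 CPM (SD, n = 4). The type I interferon list had 11 of 18 called (4 without library 1), against 3.28% of all genes. The quasi-likelihood test called 0 of the 18 and 0% of all genes. All 18 were highest in library 3 (16 with homeostatic scaling), against 28.3% of all genes. The summed level of the list was 381, 613, 1334 and 917 CPM. The called genes were Ifit2, Ifit3, Oas1a, Oas2, Oas3, Oasl2, Mx1, Irf7, Ifi27l2a, Xaf1 and Rtp4, and Oas2, a sensor of double-stranded RNA, had 13.9, 52.4, 145 and 88.9 CPM. Bst2 and Ifitm3, membrane proteins that restrict viruses, had 116 ± 37.1 and 74.3 ± 24.9 CPM. Library 1 stood at 0.368-fold the mean of the others for the median gene of that list and at 0.489-fold for class I.

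**Figure D4:**
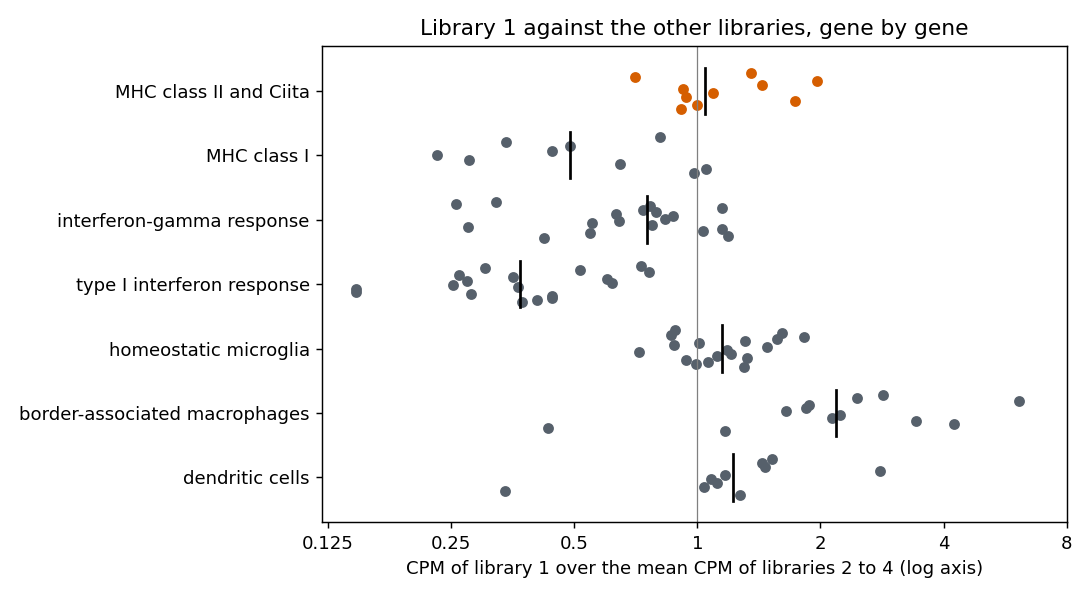
CPM of library 1 divided by the mean CPM of libraries 2 to 4 (log axis), 1 point per tested gene, with the median of each list as a black bar. The class II genes spread from 0.704 (Ciita) to 1.96 (H2-Aa), the border-associated macrophage median is 2.18, and the medians of the class I and type I interferon lists are 0.489 and 0.368.

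The proteins on which Ciita docks were all expressed. Of 7 promoter factor genes 0 were called, against 3.28% of all genes tested. At an unadjusted p under 0.05 there were 0 in edgeR, against 9.57%, and 0 in the quasi-likelihood test, against 4.66%. At these shares a list of this size can hold 0 without being steadier than other genes. The RFX subunits Rfx5, Rfxank and Rfxap had 44.9 ± 6.25, 18.7 ± 2.69 and 16.1 ± 0.825 CPM (SD, n = 4). The NF-Y subunit Nfya had 182 ± 23.9 and Creb1 147 ± 9.59 CPM. Of 12 genes upstream of Ciita 0 were called. At an unadjusted p under 0.05 there was 1 in edgeR and 1 in the quasi-likelihood test, against the same shares of all genes. The receptor chain Ifngr1 had 673 ± 64.6, the myeloid factor Irf8 497 ± 81.0 and the kinase Jak1 322 ± 31.1 CPM.

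Of the genes that supply peptide or trim the invariant chain, 0 of 11 were called, against 3.28% of all genes tested. At an unadjusted p under 0.05 there were also 0 in edgeR (9.57% of all genes) and 0 in the quasi-likelihood test (4.66%). Ctss, the protease that completes digestion of the invariant chain, had 8855 ± 1662 CPM (SD, n = 4), Ctsd 5832 ± 1136 CPM and Cst3, a cathepsin inhibitor, 15220 ± 4312 CPM. Sppl2a, which clears the membrane stub of Cd74, had 302 ± 30.3 CPM, Ifi30, a thiol reductase for antigens, 192 ± 26.2 CPM, and March1, a ligase that drives class II turnover, 236 ± 24.6 CPM.

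Co-signals of antigen presentation were also measured. Lag3, a class II binding receptor, had 597, 820.1, 1088 and 864 CPM, Cd86, a ligand of CD28, had 290 ± 33.7 and Icosl, the ligand of ICOS, 193 ± 48.9 CPM (SD, n = 4). Cd80 had 24.2 ± 2.24 and Cd40 2.2 ± 0.227 CPM, and Pdcd1lg2 had 0, 0, 4 and 0 counts. Of the 7 genes tested 0 were called, against 3.28% of all genes tested. At an unadjusted p under 0.05 there were 0 in edgeR (9.57% of all genes) and 0 in the quasi-likelihood test (4.66%).

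Outside the 10 genes, the profiles nearest to the mean of H2-Aa, H2-Ab1 and H2-Eb1 were those of Pym1, Gm4332, Stk17b, Larp7 and Nthl1. Likeness was the root mean square difference of centred log2(CPM + 0.5) over the 4 libraries, and it was 0.0248 for Pym1 and 0.0356 for Nthl1. Stk17b, a kinase gene, had 141, 89.4, 88.4 and 72.04 CPM. Cd74, at 0.151, had 658 other genes as near or nearer, and none of the 5 nearest genes was called in edgeR (0 at an unadjusted p under 0.05).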

How the data were processed

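Raw read counts for 55471 Ensembl genes in 4 libraries were deposited by the authors. The submitters' processing notes name STAR 2.7.2b, featureCounts 1.6.5, bcl2fastq 2.20.0.422 and the build GRCm38. No source used here gives the annotation release, the strand setting or how multi-mapping reads were counted. Per the labels' protocols, 300 ng of RNA went into a directional poly(A) library kit. GENCODE M21 matched 55230 identifiers, and the remaining 241 took up to 0.00526% of a library.

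CPM were computed on TMM-scaled library sizes in edgeR 4.0.16 under R 4.3.3. For the goodness of fit, an intercept-only model with trended dispersion was fitted to the 14112 genes that passed filterByExpr. Its deviance was compared with a chi-square distribution (3 degrees of freedom), with Benjamini-Hochberg adjustment and a threshold of 0.05. A single group allows no test of a coefficient. This test makes no allowance for scatter of genes around the dispersion trend, and the quasi-likelihood test (variance against its trended prior) does. DESeq2 1.42.0 gave size factors and dispersion outliers. The script was tested on simulated data. Reads carry no molecular identifiers and are not independent molecules, so floors of 3 counts hold for counting error alone. Promoters are from RefSeq (GRCm38.p6). H2-Ab1 and Ciita had no entry there, and Cd74 was left out by its chromosome.

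The members, gene lists and tests were chosen with earlier results of these data known, and the motif spacing, the ratios between genes and TMM after the filter were chosen after seeing these values. Named from other lists were called genes and the 3 with the highest mean CPM; added after seeing values were Siglec1, markers that define a cell type and examples of pathway roles. The homeostatic, vascular and choroid plexus lists are given by counts and markers. Of the 7 neutrophil genes tested 2 were called, S100a9 and Ngp, against 3.28% of all genes tested. Some genes of these lists are not reported here.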

Additional observations from a re-analysis of the deposited data

Results flagged for a closer look

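Of 35 series of 4 values examined (the CPM of the 10 genes, 8 ratios between them and the summed CPM of 17 other gene lists), 3 had a library far from the others, judged by the gap to the nearest library as a share of the whole range (Dixon's 95% limit). Chance alone gives about 1 in 20. H2-Aa had library 1 apart on the high side, with a gap of 0.845 of its range (0.713 scaled to the homeostatic genes, under the limit). H2-Eb1 also had library 1 apart on the high side, with a gap of 0.830, close to the limit and under it with DESeq2 size factors (0.804), TMM after the filter (0.774) and homeostatic scaling (0.690). H2-DMa had library 3 apart on the high side, with a gap of 0.945 of a range that spans only 1.24-fold; with homeostatic scaling that gap was 0.0367, and library 1 was the distant one on the low side (0.771).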

How the results depend on the processing

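The count of class II genes called was 0 in every alternative run: size factors of DESeq2, total counts, homeostatic scaling, TMM after the filter (added after seeing the data), no filter, the common dispersion, the quasi-likelihood test, the DESeq2 outlier mark and each library left out. The adjusted p of H2-Aa ranged from 0.0722 (without library 3) to 1. Over all genes the count of 463 became 0 by the quasi-likelihood test, 5 by the DESeq2 outlier mark and 1058 with the common dispersion, and ranged from 106 to 425 with 1 library left out; the cause was not tested. The median ratio of highest to lowest library ranged from 1.19 to 1.42 with 1 library left out. Of the 5 genes nearest in profile, 0 to 2 were shared with 1 library left out. With the longest transcript as length, the log2 difference of H2-Eb1 to H2-Ab1 was -0.50 and that of H2-Oa to H2-DMb1 -0.15. With 1 library left out, H2-Ab1 to H2-DMa ranged from -0.13 to 0.12 and H2-Aa to H2-Oa from -0.14 to 0.22, both negative without library 1 only. The ratio of Cd74 to H2-Ab1, H2-DMa and H2-Ob was 2.28, 2.92 and 11.5 per kilobase of the longest transcript, against 4.06, 4.22 and 19.5 per kilobase of exons. No paired analysis was possible because there is a single group. Depth limits H2-Ea-ps, H2-Eb2 and the scarce lymphocyte genes, which are at or near the floor.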
